A study of Mus musculus with 56 samples.

Results

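The comparison concerned liver mRNA of mice with 2 copies of the allele for leucine at codon 446 of Gckr, the gene of glucokinase regulatory protein (GKRP), against heterozygous mice, neither with a glucokinase activator (GKA). The mice were taken by their sample labels alone, as 10 LL mice (numbers 37 to 46) and 8 PL mice (numbers 21 to 28), which are 18 of the 56 livers of the series. All were male, came from the knock-in line GCKR-P446L-EMI-B6N, and had been fed for 20 weeks on a diet rich in fat and sugar (HFHSD), with pellets of 45% fat by energy and drinking water with 10% glucose and 5% fructose. Heterozygotes had 1 copy of each allele, so both groups carried the L allele and the wild-type PP mice were not part of the main comparison. The groups with GKA at 3 mg/kg (8 PL and 10 LL mice) served as a second set of animals. The labels give no litter, cage, sequencing run or time of day, so the genotypes could not be compared within such batches. The livers are whole tissue, in which fewer cells of a type and less RNA per cell cannot be told apart.

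GKRP is an inhibitor that holds glucokinase (GK) in the nucleus of the hepatocyte, and glucose and fructose metabolites control its release. GK phosphorylates glucose on entry to the cell, and glucose phosphates then drive glycolysis, glycogen synthesis and transcription of genes such as G6pc1 through the factor ChREBP. Cholesterol synthesis in the liver starts from acetyl-CoA and is governed by SREBP-2, which Scap escorts to the Golgi when sterols are scarce and which Insig proteins retain when sterols are plentiful.

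Codon 446 of the mouse reference is shown because it defines the genotypes. It is the triplet CCA for proline, in capitals, at chr5:31466275-31466277 on the plus strand of GRCm39. These are the last bases of exon 15 of the transcript Gckr-202, and the bases after the capitals come from exon 16. The line below holds 45 coding bases, 5′ to 3′, of a coding sequence of 623 codons, and it is the reference allele and not a sequence read from the mice.
Gckr codon 446: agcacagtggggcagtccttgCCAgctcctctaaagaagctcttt

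Between 6026856 and 8018475 reads were assigned to transcripts in PL mice (median 7184773) and between 5565457 and 7803933 in LL mice (median 6625996). Levels are given as CPM, the read count of a gene relative to the scaled size of its library. Summed hepatocyte markers, such as albumin, had 75429 to 104830 CPM in PL and 75967 to 120891 CPM in LL. Of the marker genes of pancreas, adipose tissue, muscle and neutrophils, 4 of 6, 3 of 6, 2 of 5 and 1 of 5 had no read in any of the 18 livers. Blood markers, 5 haemoglobin and red cell genes, summed to 296 to 592 CPM in PL and 396 to 1654 CPM in LL, and 4 of the 5 had a higher fitted mean in LL, none with an unadjusted p below 0.05. The first principal component of 15 clock genes had a mean of 0.035 ± 0.997 in LL and -0.044 ± 1.071 in PL (SD). LL mice 37, 43, 45 and 46 were at 0.883 to 1.271, the other LL mice at -1.215 to 0.133, and PL mice at -1.698 to 1.46. On the first component of all genes tested (20.8% of variance), those LL mice were at -45.07 to -20.54. The other LL mice were at 11.8 to 38.29 and the PL mice at -23.31 to 18.52. What separates these LL mice was not tested.

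Gckr mRNA (chromosome 5, 31454787 to 31484658, GRCm39) was at 146, 169 and 223 CPM (lowest, median and highest) in PL and at 130, 145 and 194 CPM in LL. The ranges overlapped, and 8 of 10 LL mice were below the PL mean. The log2 fold change by LL against PL genotype was -0.22 (SE 0.10, unadjusted p 0.0336, edgeR adjusted p 0.972), so the difference did not pass the test over all genes. The transcript Gckr-202 held 49.9% ± 10.4 of the Gckr reads in PL (SD, n = 8) and 50.7% ± 5.39 in LL (n = 10, two-sided exact permutation p = 0.841). As a share of TPM, the length-adjusted abundance that Salmon gives, the means differed by 9.90 percentage points (exact permutation p = 0.120).

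A single gene passed the test in the 10616 genes compared. G6pc1, the catalytic subunit of glucose-6-phosphatase that releases free glucose from the hepatocyte, rose by LL against PL genotype, and none of the cholesterol biosynthesis genes that followed it in rank passed. One differentially expressed gene (DEG, defined by an adjusted p below 0.05 with LL at 1.3 times PL or more, or at 0.7 times PL or less) is 0.00942% of the genes tested. At an unadjusted p below 0.05 there were 486 genes, or 4.58% of all, with 272 lower in LL (2.56%) and 214 higher (2.02%). The median log2 fold change of all genes was 0.0005. DESeq2, the tool of the study, called 21 DEGs on the same mice, 7 higher and 14 lower. It was run without the edgeR filter on low counts, and 24040 genes had a p. DESeq2 applies its own filter on mean count before adjustment, so fewer genes may have been adjusted over. Of the 21, 6 were cholesterol biosynthesis genes (Cyp51, Dhcr7, Fdps, Msmo1, Nsdhl and Sqle). A DESeq2 fit of all 6 groups of the series called 5 genes, none in that pathway. The edgeR fit of all 6 groups called 0 genes, and 537 had an unadjusted p below 0.05.

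**Figure D1:**
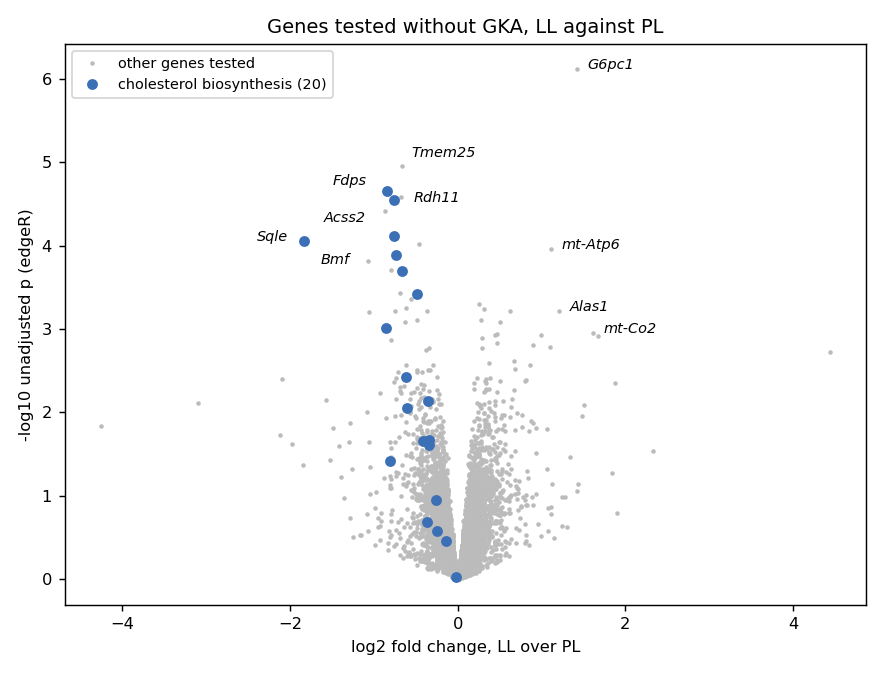
Log2 fold change of LL over PL (x axis) and -log10 of the unadjusted edgeR p (y axis) for the 10616 genes tested, with the 20 cholesterol biosynthesis genes as blue points. G6pc1 stands at the top on the right at a log2 fold change of 1.42, and all 20 blue points are left of 0, the leftmost being Sqle at -1.83.

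G6pc1 (chromosome 11, 101258369 to 101268729, plus strand) had 93.8, 154 and 210 CPM (lowest, median and highest) in the 8 PL mice and 256, 396 and 639 CPM in the 10 LL mice. Every LL mouse was above every PL mouse. In all, 4 genes (0.0377% of those tested) had groups without overlap in either direction, the others being Fdps, Rdh11 and Cd59a. The means of G6pc1 were 151 ± 46.6 CPM in PL and 403 ± 118 CPM in LL (SD), a 2.67-fold difference. The log2 fold change was 1.42 (SE 0.20, edgeR adjusted p 0.00821), and the exact permutation test of log2 CPM gave a two-sided p of 2.29e-05, which is the smallest it can give where the groups do not overlap and is not adjusted for the choice of the gene. Leaving out each mouse in turn gave log2 fold changes of 1.32 to 1.5 and kept G6pc1 below the threshold each time. In the fit of all 6 groups the adjusted p was 0.107 at a log2 fold change of 1.43.

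The enzymes and transporters around G6pc1 differed less. Of 11 genes of glucose output tested (Pck2 had too few reads), 10 had a higher mean in LL, with a median log2 fold change of 0.08. Pck1, which makes phosphoenolpyruvate for gluconeogenesis, had 490, 752 and 1045 CPM in PL and 588, 975 and 2149 CPM in LL, with a log2 fold change of 0.49 (SE 0.20, unadjusted p 0.0225, adjusted 0.918). The glucose 6-phosphate carrier Slc37a4 was at 0.27 (SE 0.19, unadjusted p 0.162) and the glucose transporter Slc2a2 at 0.14 (SE 0.09, unadjusted p 0.117). Fbp1, Pcx and the regulators Ppargc1a, Foxo1 and Hnf4a had log2 fold changes between 0.01 and 0.08. Igfbp1, a secreted protein that insulin represses, had 5.17, 11.5 and 19.9 CPM in PL and 5.35, 17.4 and 47.0 CPM in LL, at a log2 fold change of 0.93 (SE 0.40, unadjusted p 0.0310). It was the only member of the 11 insulin and FOXO genes with an unadjusted p below 0.05, against 2.02% of all genes in that direction.

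**Figure D2:**
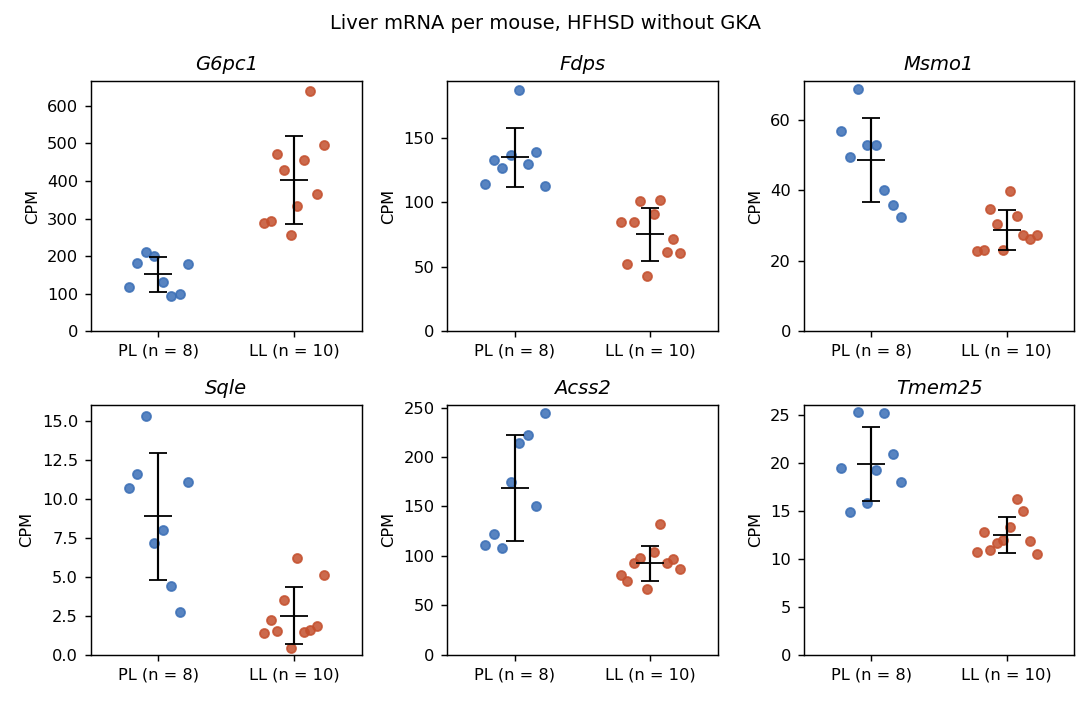
Normalised read counts (CPM, y axis) of 6 genes in each of the 8 PL (blue) and 10 LL (red) mice without GKA, with black bars for the mean ± SD. For G6pc1 and Fdps the groups do not overlap (93.8 to 210 against 256 to 639 CPM, and 113 to 187 against 43.2 to 102 CPM), and for the other 4 genes they do.

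All 20 genes of cholesterol biosynthesis had a lower fitted mean in LL than in PL, against 49.8% of all genes tested. The median log2 fold change was -0.55, and 15 of the 20 had an unadjusted p below 0.05, against 2.56% of all genes in that direction. None passed after adjustment over all genes. The mean log2 CPM over the 20 genes was 4.93, 5.41 and 5.58 (lowest, median and highest) in PL and 4.42, 4.70 and 5.25 in LL. All 10 LL mice were below the PL mean, and 8 of 10 were below the lowest PL mouse. Mouse 42 was the highest LL mouse and mice 45 and 46 were the lowest. Since the list was chosen with earlier results of these mice known, no p is given for it.

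In the first steps, from acetyl-CoA to HMG-CoA, the differences were small. Acat2, the cytosolic thiolase, had a log2 fold change of -0.26 (SE 0.16, unadjusted p 0.113), with 34.7, 40.6 and 65.5 CPM in PL and 28.1, 38.8 and 63.7 CPM in LL. Hmgcs1, HMG-CoA synthase, had 49.4, 123 and 160 CPM in PL and 41.4, 92.9 and 153 CPM in LL (-0.36, SE 0.28, unadjusted p 0.207). The PL and LL mice overlapped over most of the range for both genes.

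The isoprenoid steps that follow were lower by more. Fdps, farnesyl diphosphate synthase (chromosome 3, 89000888 to 89019213), had 113, 131 and 187 CPM in PL and 43.2, 78.1 and 102 CPM in LL, with no overlap. Its log2 fold change was -0.84 (SE 0.15, edgeR adjusted p 0.0602), and LL had 0.557 of the PL level. Idi1, isopentenyl diphosphate isomerase, had 16.2, 33.6 and 59.2 CPM in PL and 10.7, 19.6 and 32.7 CPM in LL (-0.85, SE 0.22, adjusted p 0.347), and all 10 LL mice were below the PL mean. Pmvk, phosphomevalonate kinase, was at -0.49 (SE 0.12, adjusted p 0.252), Mvk, mevalonate kinase, at -0.62 (SE 0.19, adjusted p 0.670), and Mvd, the decarboxylase, at -0.81 (SE 0.37, unadjusted p 0.0379).

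At the entry to sterols, Sqle, squalene epoxidase (chromosome 15, 59186869 to 59203043), had the most negative log2 fold change of the list. It had 2.78, 9.33 and 15.3 CPM in PL and 0.423, 1.72 and 6.20 CPM in LL, and 7 of 10 LL mice were below the lowest PL mouse. The log2 fold change was -1.83 (SE 0.37, adjusted p 0.114). Fdft1, squalene synthase, was at -0.35 (SE 0.12, unadjusted p 0.00724), and Lss, which closes the sterol rings, at -0.60 (SE 0.21, unadjusted p 0.00880).

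In the steps from lanosterol to cholesterol, Msmo1, the sterol methyl oxidase (chromosome 8, 65170603 to 65186830), had 32.5, 51.1 and 68.7 CPM in PL and 22.7, 27.3 and 39.7 CPM in LL. Its log2 fold change was -0.76 (SE 0.14, adjusted p 0.0602), and 7 of 10 LL mice were below all PL mice. Nsdhl, the sterol decarboxylase (chromosome X), was also at -0.76 (SE 0.15, adjusted p 0.114), with 19.5, 26.4 and 33.6 CPM in PL and 10.0, 15.2 and 24.5 CPM in LL. Cyp51, the lanosterol demethylase, had 30.6, 37.8 and 52.7 CPM in PL and 13.4, 24.1 and 31.9 CPM in LL, and 9 of 10 LL mice were below the lowest PL mouse (-0.73, SE 0.16, adjusted p 0.126). Dhcr7, which forms cholesterol from its 7-dehydro precursor, was at -0.66 (SE 0.14, adjusted p 0.155). Tm7sf2, Hsd17b7 and Sc5d were between -0.41 and -0.34 with unadjusted p between 0.0216 and 0.0243. Ebp, a sterol isomerase, was at -0.14 (SE 0.14, unadjusted p 0.343). Exons of Acat2, Hmgcs1, Fdft1, Sqle, Lss, Cyp51 and Nsdhl overlap those of a gene on the opposite strand, and those of Tm7sf2 overlap Vps51 on the same strand, so their reads may include some of those genes.

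**Figure D3:**
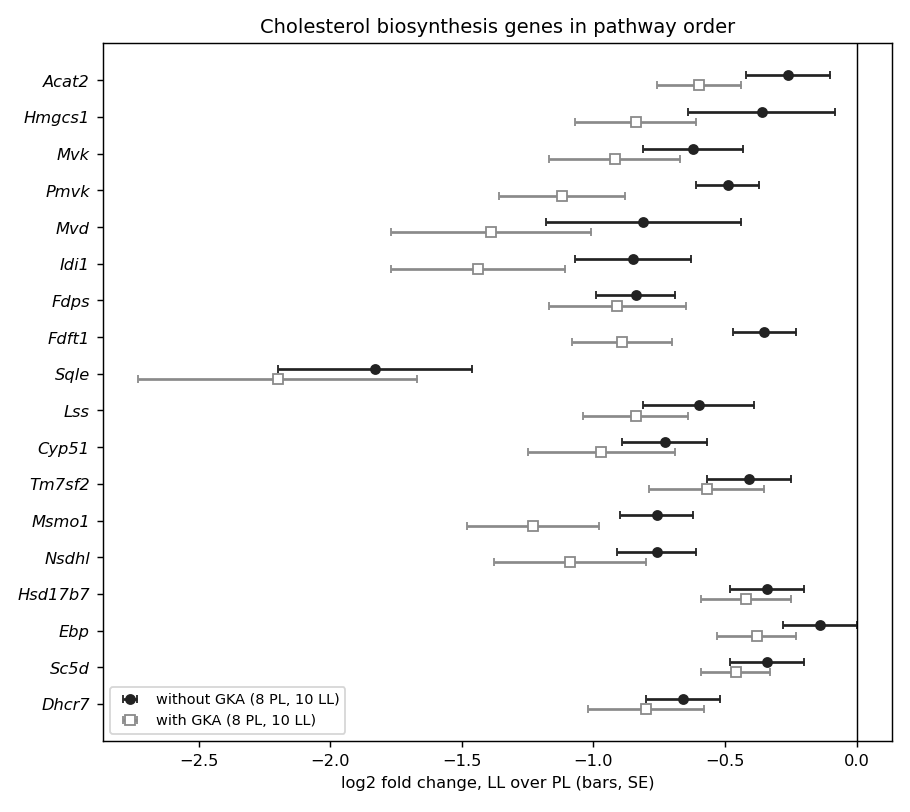
Log2 fold change of LL over PL with its SE (x axis) for cholesterol biosynthesis genes, from acetyl-CoA at the top to cholesterol at the bottom, without GKA (black circles) and in the separate mice with GKA (grey squares). All points are below 0, from -2.20 for Sqle with GKA to -0.14 for Ebp without GKA.

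Calls in this pathway depended on single mice. Without LL mouse 42 there were 8 DEGs, of which 5 were cholesterol biosynthesis genes (Dhcr7, Fdps, Msmo1, Nsdhl and Sqle). Without LL mouse 43 there were 5, including Fdps. Without PL mouse 28 there were 2, of which 1 was Msmo1, and without PL mouse 22 or 24 the 2 were G6pc1 and Tmem25. With the clock component as a covariate, 9 DEGs included Cyp51, Fdps and Msmo1.

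Without GKA, the regulators of the pathway differed less than its enzymes. Of 10 sterol control genes, 8 were lower in LL with a median of -0.25, and 2 of these had an unadjusted p below 0.05, against 2.56% of all genes in that direction. Scap, the SREBP escort protein, had 47.6, 66.8 and 88.0 CPM in PL and 39.7, 51.0 and 64.4 CPM in LL, with all 10 LL mice below the PL mean (log2 fold change -0.38, SE 0.10, adjusted p 0.441). Stard4, a sterol carrier, was at -0.27 (SE 0.10, unadjusted p 0.0120). Srebf2, which encodes SREBP-2, was at -0.24 (SE 0.12, unadjusted p 0.0558). Insig1, a target and brake of SREBP, had 73.7, 153 and 361 CPM in PL and 70.8, 101 and 258 CPM in LL, a wide overlap (-0.59, SE 0.31, unadjusted p 0.0688). Insig2, Mbtps1 and Mylip were within 0.02 of 0, and Mbtps2 was at 0.16 (SE 0.17).

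Other lower genes among those with the smallest p were outside the lists of cholesterol biosynthesis and sterol control. Acss2, which makes cytosolic acetyl-CoA from acetate (chromosome 2, 155355679 to 155428016), had 108, 163 and 244 CPM in PL and 67.1, 92.4 and 132 CPM in LL. Its log2 fold change was -0.86 (SE 0.16, adjusted p 0.0679), and 9 of 10 LL mice were below the lowest PL mouse. Rdh11, a retinol dehydrogenase (chromosome 12), had 23.6, 26.0 and 33.9 CPM in PL and 10.2, 16.5 and 21.5 CPM in LL without overlap (-0.68, SE 0.12, adjusted p 0.0602). Tmem25, a transmembrane protein (chromosome 9, 44705066 to 44710624), had 14.9, 19.3 and 25.3 CPM in PL and 10.5, 12.0 and 16.2 CPM in LL (-0.66, SE 0.11, adjusted p 0.0582). Mmab, of the vitamin B12 pathway and the neighbour of Mvk on chromosome 5, was at -0.46 (SE 0.09, adjusted p 0.114). Bmf, an inducer of cell death, had 4.42, 8.10 and 11.3 CPM in PL and 2.55, 3.22 and 7.39 CPM in LL (-1.07, SE 0.23, adjusted p 0.133).

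**Figure D4:**
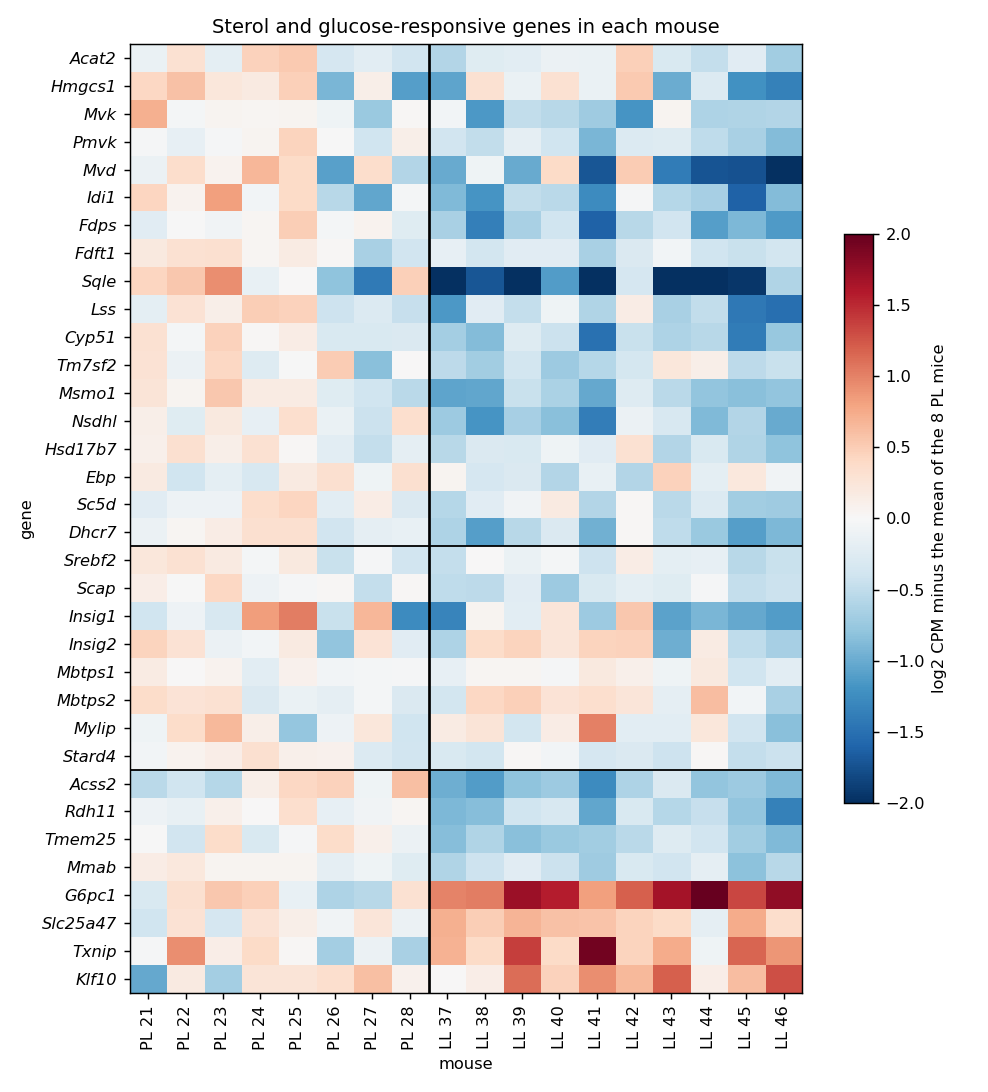
Log2 CPM minus the mean of the 8 PL mice (colour, from -2 to 2) for genes (rows) in each mouse without GKA (columns). The top block holds cholesterol biosynthesis, the middle block sterol control, and the bottom block 4 further lower and 4 higher genes. LL mouse 42 has the palest sterol block of the LL mice, at a mean log2 CPM of 5.25 over the 20 genes, and G6pc1 is red in all 10 LL mice.

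The windows of 250 bases upstream of the transcript start are shown for G6pc1 and for Sqle, the cholesterol gene with the most negative log2 fold change, since they differ in opposite directions. They are read from the plus strand of GRCm39, 5′ to 3′, and the capitals mark the letters CCAAT or their reverse complement ATTGG.
G6pc1, chr11:101258119-101258368, plus strand: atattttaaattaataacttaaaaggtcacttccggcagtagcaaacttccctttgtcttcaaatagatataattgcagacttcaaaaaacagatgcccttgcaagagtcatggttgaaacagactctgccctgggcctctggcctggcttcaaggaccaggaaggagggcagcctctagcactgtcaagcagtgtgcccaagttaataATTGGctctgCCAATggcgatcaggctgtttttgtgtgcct
Sqle, chr15:59186632-59186881, plus strand: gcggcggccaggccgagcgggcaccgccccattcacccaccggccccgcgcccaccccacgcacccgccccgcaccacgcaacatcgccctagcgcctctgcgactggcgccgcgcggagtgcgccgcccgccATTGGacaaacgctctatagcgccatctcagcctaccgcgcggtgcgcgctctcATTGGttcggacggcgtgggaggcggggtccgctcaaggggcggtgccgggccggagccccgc

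CCAAT, the letters that the factor NF-Y recognises, was present on either strand in 15 of the 20 cholesterol windows. It was present in 8 of the windows of the 10 lower genes with the smallest p, and in 5 of those of the 10 higher genes. It was present in 36.7% of the 10122 windows of protein-coding genes tested. The cholesterol and lower sets share Fdps, Msmo1, Nsdhl, Sqle and Cyp51. The windows of Mmab and Mvk overlap, so these counts are not separate. The higher genes include mt-Atp6 and mt-Co2, whose windows lie in mitochondrial DNA and are not promoters of nuclear genes. The mt-Co2 window is among the 5. The sterol response element was searched as TCACNCCAC, where N is any base, on both strands. It was present in 1 of the 20 windows, that of Hmgcs1, in the Acss2 window, and in 1.02% of the windows of genes tested. The Acss2 window held 2 matches, at positions -239 and -186 from the start, of which the first is shown. This and the Hmgcs1 match are given with flanking bases, with the element in capitals.
Hmgcs1, chr13:120151735-120151773, plus strand: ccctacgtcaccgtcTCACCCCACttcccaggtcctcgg
Acss2, chr2:155359618-155359652, plus strand: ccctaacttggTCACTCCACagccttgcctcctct

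Sterol secretion and bile acid genes differed little. Of 18 tested, 7 were higher and 11 lower in LL (median -0.05). Cyp8b1, the sterol hydroxylase that sets the cholic acid share, had 268, 378 and 485 CPM in PL and 210, 274 and 458 CPM in LL, at a log2 fold change of -0.37 (SE 0.14, unadjusted p 0.0171). Nr1h3, which encodes LXR alpha, was at -0.17 (SE 0.07, unadjusted p 0.0292). Abcg5 and Abcg8, the biliary sterol transporters, were at 0.35 (SE 0.18, unadjusted p 0.0674) and 0.19 (SE 0.15, unadjusted p 0.216). Cyp7a1, the rate-limiting enzyme of bile acid synthesis, was at -0.01 with an SE of 0.48, having ranged from 1.46 to 24.3 CPM in PL and from 0.775 to 17.5 CPM in LL.

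Among 17 genes that GK overexpression induces in hepatocytes, 15 were higher in LL, with a median of 0.20. Of these, 5 had an unadjusted p below 0.05 (G6pc1, Slc25a47, Lhx6, Klf10 and Arrdc4), against 2.02% of all genes in that direction. The study singled out several of the 17, G6pc1, Slc25a47 and Lhx6 among them, also from livers that include these LL mice. The count is therefore not independent of those mice. Slc25a47, a mitochondrial carrier of liver, had 360, 484 and 583 CPM in PL and 419, 689 and 793 CPM in LL. In 9 of 10 LL mice it was above all PL mice, mouse 44 being the exception (log2 fold change 0.47, SE 0.12, adjusted p 0.371). Lhx6, a homeobox factor, had 2.22, 2.75 and 3.81 CPM in PL and 2.92, 4.55 and 6.99 CPM in LL (0.67, SE 0.19, unadjusted p 0.00241). Klf10, a zinc finger factor that responds to glucose, was at 0.64 (SE 0.22, unadjusted p 0.00855). Of 12 ChREBP genes, 9 were higher with a median of 0.33. Of these, 3 (Txnip, Klf10 and Arrdc4) had an unadjusted p below 0.05, against 2.02% of all genes in that direction. Klf10 and Arrdc4 are also among the GK-induced genes above, as are other members, so the counts of the lists are not separate. Txnip, an arrestin-like protein induced by glucose, had 25.5, 41.1 and 78.6 CPM in PL and 38.9, 67.6 and 158 CPM in LL (0.82, SE 0.25, unadjusted p 0.00412). Pklr, a glycolytic target of ChREBP, was at -0.01 (SE 0.15), and Mlxipl, the gene of ChREBP, at -0.25 (SE 0.15).

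The higher genes outside these lists included Alas1, the first enzyme of haem synthesis, with 37.7, 71.5 and 122 CPM in PL and 81.4, 156 and 310 CPM in LL. All 10 LL mice were above the PL mean, and the log2 fold change was 1.21 (SE 0.30, edgeR adjusted p 0.267). Cd59a, an inhibitor of complement, differed by little but without overlap (49.4 to 55.9 CPM in PL and 56.7 to 76.3 CPM in LL, 0.26, SE 0.06, adjusted p 0.267). Usp6nl, a GTPase activator, was at 0.51 (SE 0.13), Dcun1d3, of cullin neddylation, at 0.63 (SE 0.16), Gtf2e1, of the basal transcription machinery, at 0.45 (SE 0.12), and Pcnp, a nuclear protein, at 0.28 (SE 0.07), with adjusted p between 0.267 and 0.371.

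The mitochondrial mRNA mt-Atp6, a subunit of ATP synthase, had 1391, 2343 and 3575 CPM in PL and 2627, 4900 and 8877 CPM in LL. Its log2 fold change was 1.11 (SE 0.23, edgeR adjusted p 0.116). Its exon overlaps those of mt-Atp8 and mt-Co3. mt-Co2, a subunit of cytochrome oxidase, had 561, 1203 and 1348 CPM in PL and 1018, 1967 and 11745 CPM in LL, where 11745 CPM was mouse 46 and the next was 5120 CPM. Its log2 fold change was 1.61 (SE 0.42, adjusted p 0.371) and 1.10 without mouse 46. Of the 13 mitochondrial mRNAs, looked at after these values were seen, 12 were higher in LL, with a median of 0.11, and 3 of these had an unadjusted p below 0.05 (mt-Atp6, mt-Co2 and mt-Nd3), against 2.02% of all genes in that direction. mt-Nd1, mt-Nd4 and mt-Cytb were at 0.11, 0.04 and 0.04. Nuclear copies of mitochondrial genes could share reads with them.

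**Figure D5:**
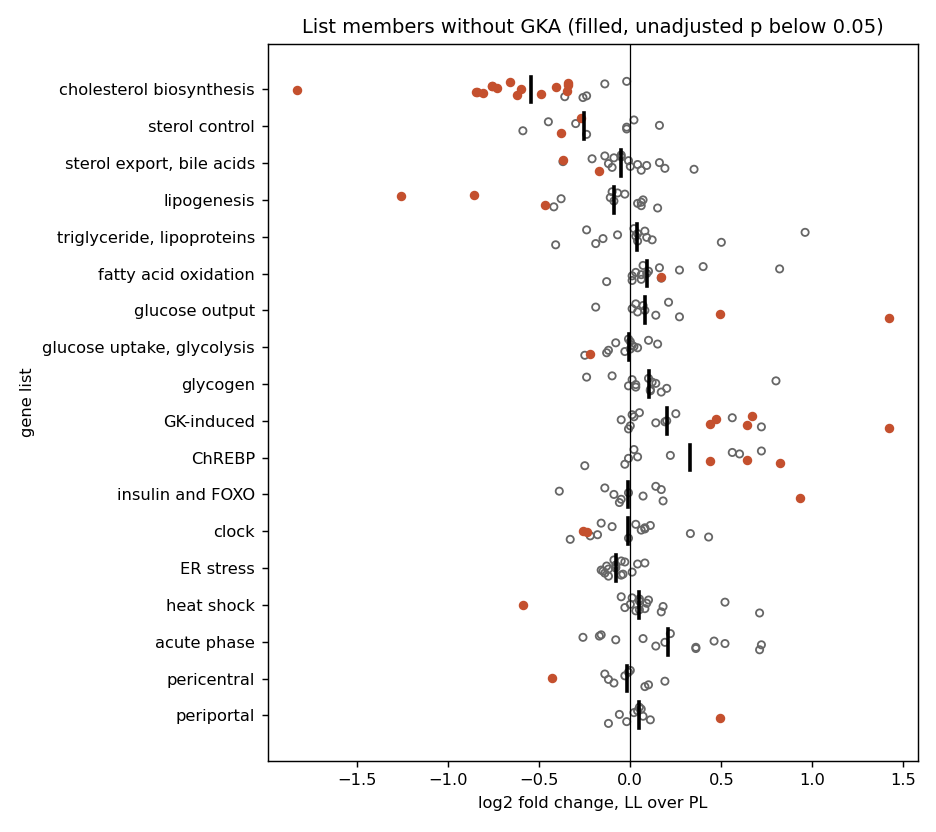
Log2 fold change of LL over PL (x axis) of the members of 18 gene lists (rows) without GKA, with filled points for an unadjusted p below 0.05 and a black bar for the median. The bar for cholesterol biosynthesis is at -0.55 and that for ChREBP genes at 0.33, and the bars of the other lists are between -0.25 and 0.21.

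In lipogenesis, 5 of 15 genes were higher and 10 lower, with a median of -0.09, and 3 of the lower genes had an unadjusted p below 0.05, against 2.56% of all genes in that direction. With GKA 14 of the 15 were lower (median -0.35). Fasn, fatty acid synthase, was at 0.04 (SE 0.45), Scd1, the stearoyl-CoA desaturase, at 0.06 (SE 0.29), and Srebf1 at 0.15 (SE 0.23). Besides Acss2, Acacb, of the mitochondrial malonyl-CoA pool, was at -0.47 (SE 0.22, unadjusted p 0.0471), and Pnpla3, a lipid droplet lipase, at -1.26 (SE 0.60, unadjusted p 0.0476) on few reads. In fatty acid oxidation 14 of 15 genes were higher, with a median of 0.09. Acadl, an acyl-CoA dehydrogenase, was the one member with an unadjusted p below 0.05 (0.17, SE 0.07, p 0.0264 by edgeR, adjusted 0.947), against 2.02% of all genes in that direction. None of 14 triglyceride and lipoprotein genes (median 0.04) and none of 14 glycogen genes (median 0.11) had an unadjusted p below 0.05.

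In the 17 genes of endoplasmic reticulum stress 3 were higher (median -0.08), in 16 heat-shock genes 13 were higher (median 0.05), and in 14 acute-phase genes 10 were higher (median 0.21). Dnaja4, a co-chaperone, was the one gene of these with an unadjusted p below 0.05 (-0.59, SE 0.23, p 0.0181 by edgeR, adjusted 0.864). Over all genes tested, 2.56% were lower and 2.02% higher in LL at that level, so a single gene in these 3 lists is no more than that background. The same shares apply to the other genes of this paragraph. Of 10 pericentral genes 4 were higher (median -0.02), and of 10 periportal genes 7 were higher (median 0.04), with Pck1 the one periportal gene at an unadjusted p below 0.05. Lgr5, a pericentral receptor, was at -0.43 (SE 0.18, unadjusted p 0.0283). In the clock list, 7 of 15 genes were higher (median -0.01), and the repressors Cry2 and Nr1d1 were at -0.24 (SE 0.07, unadjusted p 0.00374) and -0.26 (SE 0.11, unadjusted p 0.0300). Of 14 genes of glucose uptake and glycolysis, only Gckr itself had an unadjusted p below 0.05, and the median was 0.00. Macrophage markers had a median of -0.03 (9 of 12 tested), endothelial markers -0.15 (7 of 7) and stellate cell and fibrosis markers 0.17 (9 of 11), with Pdgfrb at 0.27 (unadjusted p 0.0481) and Des at -0.56 (unadjusted p 0.0307). Spp1, the one bile duct marker with enough reads, was at 0.69 (SE 0.35, unadjusted p 0.0641), and none of 9 lymphocyte markers had enough reads to test. Fabp4 of adipose tissue was at 0.40 and Cela1 of pancreas at -0.24, and the 8 hepatocyte markers had a median of 0.03. The part of these cells in the results above was not tested.

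The study had named 9 genes as higher and 7 as lower by LL genotype on livers that include these LL mice, so their direction here is not independent of that choice. In LL against PL, 8 of the 9 were higher (median 0.35) and all 7 were lower (median -0.25), with an unadjusted p below 0.05 for 2 genes of each list, against 2.02% of all genes in the higher and 2.56% in the lower direction.

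The PP mice were set beside the 2 genotypes on a common scaling of the 3 groups, with PP mouse 7 left out as the authors did. G6pc1 had medians of 223 CPM in PP (n = 9), 154 CPM in PL and 400 CPM in LL, and a range of 108 to 432 CPM in PP that overlapped both. Sqle had medians of 4.32, 9.28 and 1.73 CPM, Msmo1 36.0, 51.0 and 27.5 CPM, and Fdps 105, 131 and 78.6 CPM in PP, PL and LL. The PL median was thus the highest of the 3 for these sterol genes and the lowest for G6pc1. These genes were picked by their difference between PL and LL, which favours a PL median at the extreme. Other sterol genes had a higher median in PP than in PL, such as Insig1 (239 and 154 CPM), Insig2 (365 and 244 CPM) and Sc5d (391 and 353 CPM). PL against PP was not past an unadjusted p of 0.05 for G6pc1, Sqle, Msmo1 or Fdps. The log2 fold changes were -0.51, 0.57, 0.28 and 0.15 (p of 0.0644, 0.204, 0.0891 and 0.451 by edgeR). Other genes named above differed more between PL and PP than between LL and PP. Bmf was at 0.85 for PL (edgeR p 0.00373) and -0.20 for LL (p 0.464), and Lhx6 at -0.48 (p 0.00769) and 0.21 (p 0.269). Slc25a47 was the reverse, at 0.24 (p 0.0956) and 0.72 (p 1.33e-05). In all, edgeR called 16 DEGs of 10580 genes for PL against PP and 9 of 10537 for LL against PP. The median of the 20 cholesterol genes was 0.15 for PL against PP and -0.47 for LL against PP. These comparisons share mice with LL against PL.

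In the separate mice that had GKA, G6pc1 had 125, 191 and 518 CPM in 8 PL mice and 255, 417 and 692 CPM in 10 LL mice. The groups overlapped, and the log2 fold change was 1.03 (SE 0.28, unadjusted p 0.00147, edgeR adjusted p 0.257). All 20 cholesterol genes were again lower in LL, with a median of -0.90, and 19 had an unadjusted p below 0.05, against 4.80% of 10491 genes in that direction. Msmo1 had 23.2, 72.6 and 116 CPM in PL and 24.0, 29.6 and 42.4 CPM in LL (-1.23, SE 0.25, adjusted p 0.124). Of the 10 sterol control genes, 7 were lower and 3 higher with GKA (median -0.32). Of the lower ones, 6 had an unadjusted p below 0.05, against the same 4.80%. Insig1 was at -1.08 (SE 0.22, edgeR unadjusted p 7.16e-05, adjusted 0.124). With GKA, edgeR called 0 DEGs while 902 genes (8.60%) were at an unadjusted p below 0.05. DESeq2 called 30, with 23849 genes given a p before its own filter.

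Whether the genotype difference itself differed with GKA was tested as an interaction. No gene passed in edgeR, and 442 of 11164 genes (3.96%) had an unadjusted p below 0.05. DESeq2 called 1 gene, the pseudogene Rps27a-ps3, with 26122 genes given a p before its own filter. For G6pc1 the difference with GKA minus that without was -0.39 on the log2 scale (unadjusted p 0.274), and for Sqle -0.38 (unadjusted p 0.598). Fdft1 and Pmvk had unadjusted p of 0.0237 and 0.0331, with adjusted p of 1.000. For mt-Atp6 it was -1.08 (unadjusted p 0.00209, adjusted 1.000), the log2 fold change with GKA having been 0.03.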

How the data were processed

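The authors extracted RNA from the left lateral lobe of the liver with Trizol and a column clean-up, sequenced samples whose RNA integrity was over 6, and, without trimming, quantified reads with Salmon 1.4.0 (version from the submitters' processing notes) against transcripts of GENCODE M26 on GRCm39. The deposited file of a mouse holds an estimated count per transcript, not normalised, TPM scaled by Salmon to effective length, and the effective length itself, which the authors did not change further. Strand settings are not given in the sources used here, so reads of genes on opposite strands of 1 site may not be separated.

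Transcripts were matched by identifier to genes of GENCODE vM39 (137570 of 139225, 98.8%, holding at least 99.76% of the reads of each of the 18 mice), and estimated counts were summed per gene and rounded. No 2 mice of a group had counts within sampling noise. The mice are separate animals by their numbers, which differ between groups and pair none of them.

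Main tests used the quasi-likelihood test of edgeR 4.0.16 (R 4.3.3) with TMM scaling and filterByExpr on PL and LL mice, and Benjamini-Hochberg adjustment over all 10616 genes. CPM are TMM-scaled, log2 CPM has a prior count of 2, and medians of lists are over fitted log2 fold changes. Fits of the mice with GKA were scaled separately. Promoter windows and the codon were read from GRCm39 at the Ensembl canonical transcript. Exact permutation tests went through all assignments of mice to groups with NumPy in Python. Alternatives were DESeq2 1.42.0, limma 3.58.1 (voom), RLE scaling, other filters, transcript length as an offset, the clock component as a covariate, all 6 groups in 1 fit, and leaving out each mouse.

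Genes were named by a rule: DEGs, the 10 higher and 10 lower genes with the smallest p that have an established symbol, Gckr, all cholesterol biosynthesis and sterol control genes, and of other lists the members with an unadjusted p below 0.05 or else the one with the smallest. Further list members are named as examples. Some genes are counted in their lists and not reported here by themselves. The comparison, the lists and the rule were chosen with earlier results of these data known.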

Additional observations from a re-analysis of the deposited data

Results flagged for a closer look

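In 150 groups of values (75 named genes in PL and in LL), 8 had a mouse far from the others on the log2 CPM scale, where chance alone gives about 1 in 20. The count is near that share, so the mice below are listed as description only. Fdps was highest in PL mouse 25, at 187 CPM against 113 to 139 CPM in the other PL mice. Acat2 was highest in LL mouse 42, at 63.7 CPM against 28.1 to 42.2 CPM, and the same mouse had the highest mean of the cholesterol biosynthesis list in LL. Slc25a47 was lowest in LL mouse 44, at 419 CPM against 604 to 793 CPM. Cry2 was highest in LL mouse 46, at 23.7 CPM against 17.3 to 19.9 CPM. Calr, an endoplasmic reticulum chaperone, was lowest in LL mouse 45, at 408 CPM against 541 to 643 CPM. Pdgfrb was lowest in PL mouse 21, at 2.05 CPM against 3.06 to 3.66 CPM. The haemoglobin gene Hbb-bs was lowest in PL mouse 25, at 103 CPM against 195 to 225 CPM, and highest in LL mouse 37, at 606 CPM against 162 to 309 CPM. G6pc1 had no such mouse in either group. No gene had a genotype difference that differed between mice with and without GKA after adjustment in edgeR.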

How the results depend on the processing

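The count of 1 DEG became 21 with DESeq2, 5 with DESeq2 on all 6 groups, 0 with edgeR on all 6 groups and 9 with the clock component, and between 1 and 8 when a mouse was left out. It stayed at 1 with RLE scaling, both other filters, transcript length as an offset and limma-voom. The 486 genes at an unadjusted p below 0.05 became 1279 without a filter and 1368 with transcript length. With GKA, 0 DEGs became 30 with DESeq2, and the interaction count of 0 became 1. The cause was not tested. The cholesterol median kept its sign throughout, from -0.60 to -0.47. Transcript length as an offset turned the direction of Klf10 (-0.14), Acadl (-0.03), Hpx (-0.00), Hbb-bs (-0.01), Acat2 (0.78), Ugp2 (-0.33), Calr (0.15) and Mbtps2 (-1.11), and gave -0.72 for the median of the 7 genes named as lower. Leaving out a mouse gave -0.09 to 0.07 for Insig2, -0.05 to 0.02 for Mbtps1, -0.14 to 0.14 for Mylip, -0.76 to 0.40 for the macrophage receptor Marco, and -1.19 to 3.16 percentage points for the share of Gckr-202. No paired analysis was possible because no mouse number occurs in both groups.

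Depth limits genes of a few CPM, such as Sqle and Lhx6. Harvest time, litter and sequencing run are not labelled, so their part was not tested.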
